A study of Homo sapiens with 6 samples.

Results

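The 33 genes described here are a list of p53 pathway and target genes, taken by symbol from the 23284 genes measured in each of 6 RNA libraries of HEC-1B, an established line from a human endometrioid carcinoma. All 33 were found, TIGAR under its older symbol C12orf5, and 31 passed the filter of at least 1 FPKM (mapped fragments scaled to transcript length and library size) in at least 2 libraries. The study followed aldehyde dehydrogenase (ALDH), a marker used for cancer stem cells, by cell sorting, and compared cells in which the passage from the ALDH1A1-low into the ALDH1A1-high state was or was not accelerated. Of the 3 groups of 2 libraries, the first carries the labels high ALDH potential and accelerated (high-potential accelerated), the second is HEC-1B without the potential label, accelerated (parental accelerated), and the third is HEC-1B without that label, marked high to low (high-to-low). All groups are the same line with no other treatment in the labels, and how the high-potential cells were obtained, and whether they are 1 clone, is not given in the sources used here. No high-potential high-to-low group is among the samples, so in the comparison with high-to-low the potential label and the transition cannot be told apart.

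p53 is a transcription factor that is stabilised after DNA damage and other stress, and its targets stop the cell cycle, start cell death, repair DNA and, through MDM2, remove p53 itself. Many of these genes also respond to other factors, among them ATF4 in the amino acid and protein folding stress response. p53-type changes are often read out through CDKN1A, which encodes the p21 inhibitor of cyclin-dependent kinases.

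The RefSeq promoters below (build GRCh38.p14) are those of the 5 members with the lowest p when high-potential cells were set against high-to-low cells, shown so that their sequence can be read beside their expression. Each run is the 250 bases before the start of the gene, 5′ to 3′ on the gene's strand. Capitals mark an exact match to the 10-base p53 consensus decamer, or a pair of decamers with at most 2 mismatches in all and a spacer of 0 to 13 bases.
SFN, chr1:26862899-26863148, plus strand: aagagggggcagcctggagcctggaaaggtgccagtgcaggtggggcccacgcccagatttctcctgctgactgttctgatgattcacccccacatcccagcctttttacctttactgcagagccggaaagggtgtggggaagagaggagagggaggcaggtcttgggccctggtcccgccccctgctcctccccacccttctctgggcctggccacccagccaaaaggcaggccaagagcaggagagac
PLK2, chr5:58460087-58460336, minus strand: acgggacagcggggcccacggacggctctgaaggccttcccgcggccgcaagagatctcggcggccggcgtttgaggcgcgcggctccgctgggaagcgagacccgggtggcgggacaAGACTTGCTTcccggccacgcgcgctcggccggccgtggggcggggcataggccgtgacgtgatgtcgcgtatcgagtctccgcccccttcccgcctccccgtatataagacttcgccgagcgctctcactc
FAS, chr10:88990548-88990797, plus strand: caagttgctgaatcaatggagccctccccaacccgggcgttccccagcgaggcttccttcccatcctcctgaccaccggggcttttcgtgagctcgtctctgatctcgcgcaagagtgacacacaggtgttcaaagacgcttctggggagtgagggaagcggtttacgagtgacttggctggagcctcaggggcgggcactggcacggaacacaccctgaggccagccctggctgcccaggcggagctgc
PLK3, chr1:44800127-44800376, plus strand: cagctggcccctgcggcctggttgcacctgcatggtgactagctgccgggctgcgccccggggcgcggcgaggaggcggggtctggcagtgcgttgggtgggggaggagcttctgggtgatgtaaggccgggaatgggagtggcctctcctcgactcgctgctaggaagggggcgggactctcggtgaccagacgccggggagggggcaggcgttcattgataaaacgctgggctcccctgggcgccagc
SESN1, chr6:109094847-109095096, minus strand: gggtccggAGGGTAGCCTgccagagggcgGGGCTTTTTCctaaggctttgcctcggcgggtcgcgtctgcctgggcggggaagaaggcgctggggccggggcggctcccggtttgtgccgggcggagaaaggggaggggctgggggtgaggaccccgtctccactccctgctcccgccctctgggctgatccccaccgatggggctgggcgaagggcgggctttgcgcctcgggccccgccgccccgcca

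In the 300-base window from 250 bases before to 50 after the start, which RefSeq gave for 26 of the 33 members, 4 members (15.4%) held an exact decamer, against 6.54% of 27305 windows of all genes. Of 9324 windows of kept coding genes, 5.11% did. The 4 members with a decamer were PLK2, AEN, EI24 and FDXR. A pair of decamers was present in 4 members (15.4%) against 7.74% of all windows and 5.48% of those of kept coding genes. With 4 of 26 members in each case, the member shares are rough. The decamer reads as its own reverse complement, so both strands were covered, and the exact decamers of AEN and FDXR lie inside their pairs. Beside SESN1, the members with a pair were the following.
AEN, chr15:88621306-88621325, plus strand: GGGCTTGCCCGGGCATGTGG
CCNG1, chr5:163437529-163437557, plus strand: GAAAATGCCCccttctcgcGAGAAAGCCC
FDXR, chr17:74872996-74873025, minus strand: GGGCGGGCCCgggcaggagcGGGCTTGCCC
These matches describe letters in a short window and are not binding sites; known p53 sites of several members lie outside it. SFN, FAS and PLK3 held neither motif in this window, while PLK2 and SESN1 did.

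Before the results, 3 facts of the libraries bear on them. ALDH1A1, the sorted marker, had 352.5 and 303.6 FPKM in high-potential cells, 28.4 and 9.45 in high-to-low cells, and 26.7 (replicate 1) but 316.9 (replicate 2) in parental accelerated cells. The library labelled parental accelerated replicate 1 was thus within the high-to-low range for this marker, and it correlated with high-to-low replicate 1 (Pearson r = 0.964 across 12135 kept genes, which are not independent replicates) more than with its own replicate (0.932); the other parental accelerated library and the second high-to-low library had r = 0.948. No gene had an identical value above 0 in any pair of libraries, and the total depth is unknown; the relative depth read from low values, a rough estimate, lay between 0.807 and 1.07 of that of high-potential replicate 1. Of 8 epithelial markers 7 reached 1 FPKM (KRT18 from 290.6 to 464.4 FPKM; the epithelial cadherin CDH1 at most 0.0868), and the summed FPKM of 7 fibroblast, 6 leukocyte and 5 endothelial markers was at most 0.603, 0.73 and 1.07. In bulk RNA, fewer cells of a type and less RNA per cell cannot be told apart.

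Members were compared on the scale log2(FPKM + 1) in 1 limma model over the 6 libraries, with a call at a Benjamini-Hochberg adjusted p under 0.05 over all kept genes. Of the 31 kept members, 0 passed in any of the 4 comparisons, and the lowest limma adjusted p was 0.0692 (SFN, high-potential against high-to-low). Between high-potential and high-to-low cells 0.799% of all kept genes passed, and 5 members had an unadjusted p under 0.05 (16.1%), where 18.4% of all kept genes did. Between high-potential and parental accelerated cells 0.494% of all kept genes passed and 6 members had an unadjusted p under 0.05 (19.4%; all kept genes 14.3%). Higher calls were 0.288% and lower calls 0.206% of all kept genes in the latter comparison, and 0.396% and 0.404% in the former. Libraries did not overlap between the groups for 17 members (54.8%; all kept genes 43.4%) against parental accelerated and for 11 (35.5%; all kept genes 51.1%) against high-to-low. Of the members, 16 of 31 were higher against parental accelerated (all kept genes 50.4%) and 15 of 31 against high-to-low (all kept genes 49.2%). The median difference of the members was 0.032 against parental accelerated and -0.0016 against high-to-low, where all kept genes had 0.0050 and -0.010.

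A set of 5 genes stood at the front of the list, and they did not share 1 direction: SFN, PLK2 and FAS were lower in high-potential cells, and PLK3 and SESN1 were higher. Each separated the high-potential libraries from all 4 other libraries, and so did BTG2, BAX, XPC, DDB2 and FDXR. Of all kept genes, libraries did not overlap for 43.4% against parental accelerated and 51.1% against high-to-low. The share apart from both groups at once was not counted. With a term for the replicate number in the model, SFN, PLK2, FAS and PLK3 passed against high-to-low and SFN, PLK2 and FAS against parental accelerated. That model also called 7.78% and 4.5% of all kept genes, so a higher number of member calls goes with a higher number of calls overall. No label calls the numbers a pairing. Without the library labelled parental accelerated replicate 1, the log2 differences from parental accelerated were -1.36 for SFN, -1.01 for PLK2, -0.71 for FAS and 0.83 for PLK3.

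**Figure D1:**
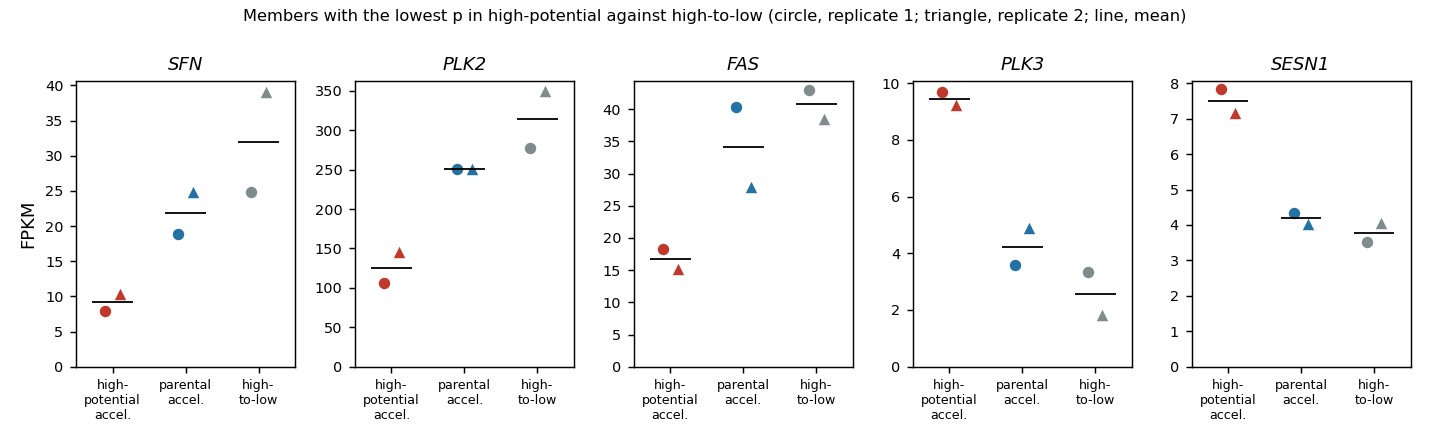
FPKM of SFN, PLK2, FAS, PLK3 and SESN1 in each library (circle, replicate 1; triangle, replicate 2) by group, with the group mean as a line. SFN, PLK2 and FAS lie lowest and PLK3 and SESN1 highest in both high-potential libraries.

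SFN encodes 14-3-3 sigma, an epithelial protein that holds cyclin B and CDK1 in the cytoplasm. Its level was 7.88 and 10.4 FPKM in high-potential cells, 18.9 and 24.83 in parental accelerated cells and 24.85 and 39.1 in high-to-low cells, with means of 9.13 ± 1.77, 21.9 ± 4.20 and 32.0 ± 10.1 FPKM (SD, n = 2 each). The groups followed each other without overlap, although the upper parental accelerated library and the lower high-to-low library were nearly level. The log2 difference of SFN in high-potential cells was -1.68 from high-to-low cells (SE 0.288, limma adjusted p = 0.0692) and -1.17 from parental accelerated cells (limma adjusted p = 0.157). With the replicate number as a term these limma adjusted p values were 0.0120 and 0.0269, within ranges over the alternatives of 0.0120 to 0.354 and 0.0269 to 0.461.

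PLK2 and PLK3 encode polo-like kinases that act in stress responses and in the control of centrioles and mitosis, and here they lay on opposite sides. PLK2, which had the highest mean FPKM of the members over all 6 libraries though not in high-potential cells, was 105.7 and 145.1 FPKM in high-potential cells, 251.3 and 250.6 in parental accelerated cells and 277.6 and 350.1 in high-to-low cells. Its means were 125.4 ± 27.8, 250.9 ± 0.508 and 313.9 ± 51.3 FPKM (SD, n = 2 each), and the high-potential libraries were below every other library. In log2 terms PLK2 was at -1.32 ± 0.234 (SE) relative to high-to-low (limma adjusted p = 0.0730) and at -1.01 against parental accelerated (limma adjusted p = 0.138). With the replicate number as a term the limma adjusted p values were 0.0164 and 0.0351, within ranges of 0.0164 to 0.364 and 0.0351 to 0.416. PLK3 went the other way, at 9.68 and 9.22 FPKM in high-potential cells, 3.59 and 4.88 in parental accelerated cells and 3.35 and 1.81 in high-to-low cells (means 9.45 ± 0.323, 4.24 ± 0.913 and 2.58 ± 1.09 FPKM, SD, n = 2 each). It too was separate in the 3 groups, in the reverse order. The log2 difference of PLK3 was 1.58 against high-to-low (SE 0.286, limma adjusted p = 0.0744, 0.0335 with the replicate number as a term, range 0.0335 to 0.354) and 1.01 against parental accelerated (limma adjusted p = 0.192).

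FAS encodes the death receptor for FAS ligand. It was 18.3 and 15.2 FPKM in high-potential, 40.4 and 27.9 in parental accelerated and 43.0 and 38.5 in high-to-low cells (means 16.7 ± 2.17, 34.2 ± 8.82 and 40.7 ± 3.17 FPKM, SD, n = 2 each). The high-potential libraries were lower than all others, while the parental accelerated and high-to-low libraries overlapped. In log2 terms FAS was at -1.24 ± 0.236 (SE) relative to high-to-low (limma adjusted p = 0.0802) and at -0.97 against parental accelerated (limma adjusted p = 0.153). With the replicate number as a term these were 0.0188 and 0.0381 (limma adjusted p), within ranges of 0.0188 to 0.37 and 0.0381 to 0.576.

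SESN1 encodes sestrin 1, which restrains the growth kinase complex mTORC1 and limits oxidative damage. It was 7.85 and 7.15 FPKM in high-potential, 4.35 and 4.04 in parental accelerated and 3.53 and 4.04 in high-to-low cells (means 7.499 ± 0.492, 4.19 ± 0.220 and 3.79 ± 0.364 FPKM, SD, n = 2 each). Both high-potential libraries were above the rest, and the log2 difference was 0.83 against high-to-low (SE 0.207, limma adjusted p = 0.118) and 0.71 against parental accelerated (limma adjusted p = 0.198). It did not pass with the replicate number as a term either, where the limma adjusted p against high-to-low was 0.0586, the lowest of its range up to 0.396.

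**Figure D2:**
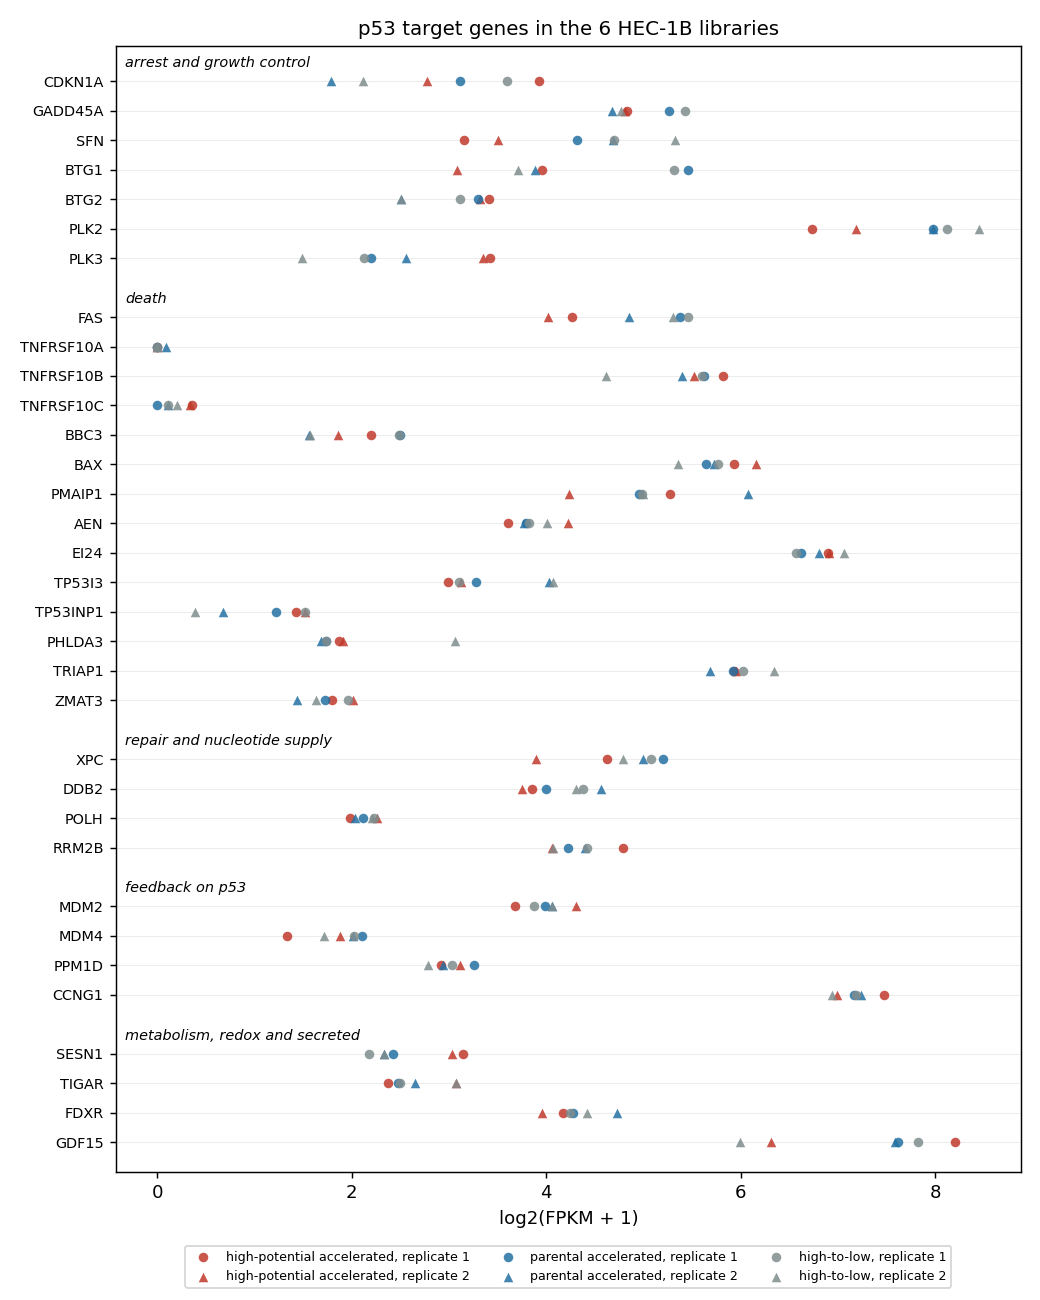
Levels of all 33 members as log2(FPKM + 1) in the 6 libraries, ordered by role, with colour for the group and symbol for the replicate. TNFRSF10A and TNFRSF10C lie near 0, PLK2, GDF15, CCNG1 and EI24 at the high end, and CDKN1A and BTG1 spread within groups.

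None of the feedback genes was called, and their groups mostly overlapped. MDM2, the ubiquitin ligase that degrades p53, was 11.8 and 18.8 FPKM in high-potential, 14.9 and 15.6 in parental accelerated and 13.7 and 15.7 in high-to-low cells, so that the high-potential libraries spanned all others. The log2 difference of MDM2 was 0.026 against high-to-low and -0.028 against parental accelerated (SE 0.254 for each, limma adjusted p = 0.969 and 0.979). MDM4, the related inhibitor of p53, had lower values in both high-potential libraries than in either parental accelerated library (1.52 and 2.67 against 3.32 and 3.04 FPKM) with no call (limma adjusted p = 0.527). The phosphatase gene PPM1D (5.89 to 8.57 FPKM) and CCNG1, which encodes cyclin G1 (121.5 to 176.6 FPKM), overlapped in every comparison. Over the 4 feedback genes the median difference was 0.065 against high-to-low and -0.057 against parental accelerated.

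Among the remaining arrest genes, CDKN1A and BTG1 differed widely within each group. CDKN1A was 14.2 and 5.82 FPKM in high-potential, 7.63 and 2.46 in parental accelerated and 11.1 and 3.33 in high-to-low cells. In each group replicate 1 was the higher library, by 1.16, 1.32 and 1.48 on the log2 scale, and the groups overlapped. Within each replicate number the high-potential library had the highest CDKN1A. The log2 difference of CDKN1A was 0.90 between high-potential and parental accelerated cells (SE 0.676, limma adjusted p = 0.621) and 0.49 between high-potential and high-to-low cells (limma adjusted p = 0.752). Leaving out parental accelerated replicate 1 or high-potential replicate 2 took the first of these to 1.56 and 1.48, and leaving out parental accelerated replicate 2 or high-potential replicate 1 took it to 0.24 and 0.32. Leaving out a library also leaves the replicate numbers unequal between the groups. With the replicate number as a term, the CDKN1A difference from parental accelerated stayed at 0.90 and did not pass (limma adjusted p = 0.0606). BTG1, an antiproliferative gene, was likewise higher in replicate 1 of each group, at 14.6 and 7.46, 43.0 and 13.8, and 38.8 and 12.0 FPKM. Its log2 difference was -1.15 against parental accelerated (SE 0.703, limma adjusted p = 0.532), which became -0.37 or -1.94 when replicate 1 or replicate 2 of the parental accelerated group was left out, and -0.71 when high-potential replicate 2 was. These leave-out values too have unequal replicate numbers between the groups. With the replicate number as a term, the BTG1 difference stayed at -1.15 and did not pass (limma adjusted p = 0.0517). Against high-to-low it was -0.99, with a limma adjusted p of 0.0563 in that model. Within each replicate number the high-potential library had the lowest BTG1. BTG2, a relative of BTG1, separated the high-potential from the high-to-low group (9.66 and 8.96 against 7.64 and 4.66 FPKM, limma adjusted p = 0.445). GADD45A, a growth arrest gene, lay between 24.7 and 42.0 FPKM with overlapping groups.

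**Figure D3:**
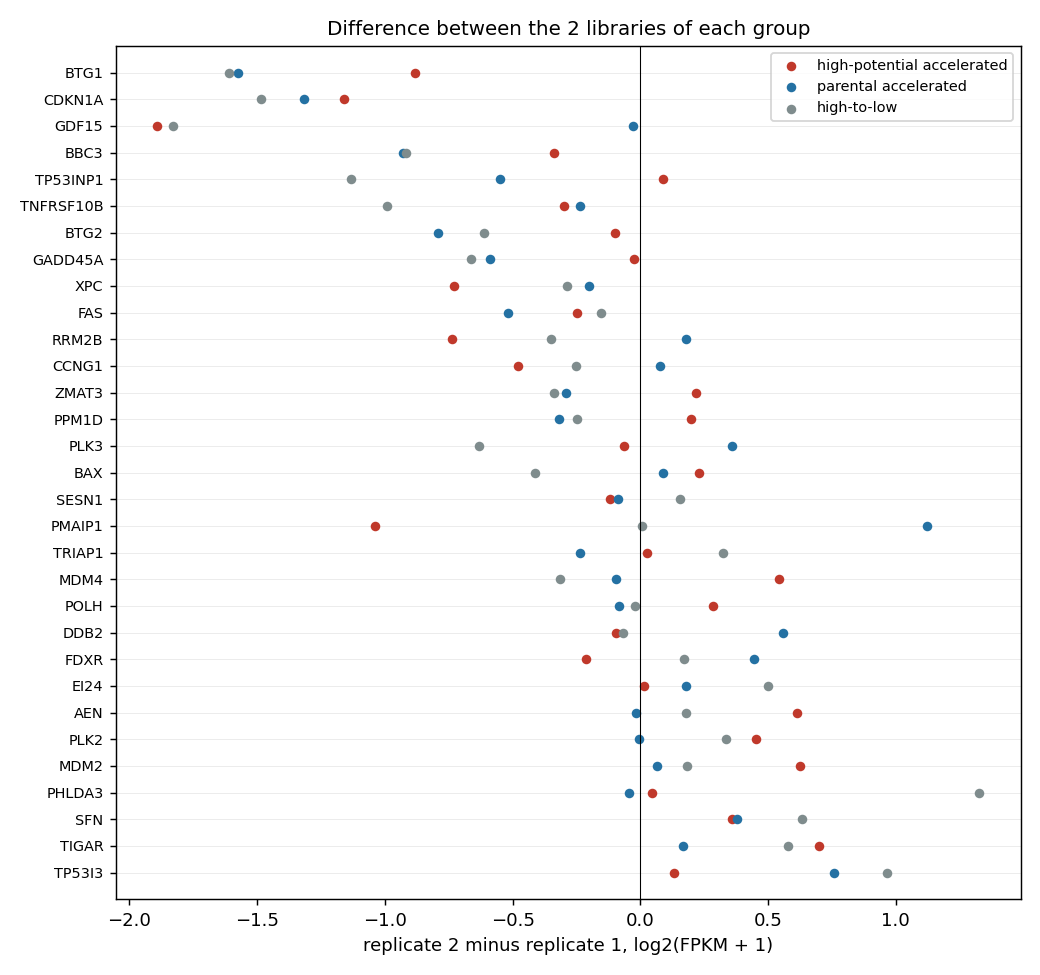
Replicate 2 minus replicate 1 of each group on the log2(FPKM + 1) scale for the 31 kept members, ordered by their mean over the groups. BTG1 and CDKN1A lie far below 0 in all 3 groups, GDF15 in 2 of them, and TP53I3 and TIGAR above 0.

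Between libraries of the same group, members differed in both directions, and most genes of a cell cycle list were higher in replicate 2. The member medians of replicate 2 minus replicate 1 were -0.025, -0.044 and -0.25 (log2) in the high-potential, parental accelerated and high-to-low groups. Of the 31 kept members, 9 (BTG1, CDKN1A, GDF15, BBC3, TNFRSF10B, BTG2, GADD45A, XPC and FAS) were lower in replicate 2 of all 3 groups, and 24.5% of all kept genes were. Another 5 (TP53I3, TIGAR, SFN, MDM2 and EI24) were higher in replicate 2 throughout, and 24.7% of all kept genes were. Among 20 cell cycle genes repressed through p21 and the DREAM complex, 16 were higher in replicate 2 of all 3 groups and 0 lower, with median log2 differences of 0.75, 0.73 and 0.67 in the high-potential, parental accelerated and high-to-low groups. CCNB1, which encodes cyclin B1, was 143.4 and 305.4, 225.5 and 508.6, and 263.3 and 446.9 FPKM in replicates 1 and 2 of these groups. The part of cell cycle state in the CDKN1A and BTG1 values was not tested. Between groups the cell cycle list was lower in 19 of 20 genes in high-potential against high-to-low cells (median -0.39, where 49.2% of all kept genes were higher), with 0 called by limma and 2 at an unadjusted p under 0.05.

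Among the death genes, the mitochondrial route was expressed at a range of levels in all groups. BAX, the pore-forming executor, was 60.1 and 70.6 FPKM in high-potential, 48.9 and 52.0 in parental accelerated and 53.6 and 40 in high-to-low cells. The high-potential libraries were above the other 4, with a log2 difference of 0.48 against high-to-low (SE 0.212, limma adjusted p = 0.297) and 0.36 against parental accelerated (limma adjusted p = 0.507). The BH3-only genes did not share this order. BBC3 (PUMA) was 3.58 and 2.62, 4.62 and 1.95, and 4.59 and 1.96 FPKM, with log2 differences between -0.00016 and 0.0019. PMAIP1 (NOXA) was 37.8 and 17.9 FPKM in high-potential, 30.1 and 66.6 in parental accelerated and 30.7 and 30.8 in high-to-low cells. Its parental accelerated difference from high-to-low of 0.53 (limma adjusted p = 1) was -0.031 without parental accelerated replicate 2.

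The TRAIL receptors lie side by side on chromosome 8 and are alike in sequence, so that reads could be split among them. TNFRSF10B, the signalling receptor DR5, was 55.4 and 44.9, 48.4 and 41.0, and 47.5 and 23.4 FPKM in the 3 groups in the order above, and was lowest in high-to-low replicate 2 (0.56 on the log2 scale for high-potential minus high-to-low, limma adjusted p = 0.439). TNFRSF10A, the receptor DR4, is listed at 0 in 5 libraries and at 0.0648 FPKM in parental accelerated replicate 2. The decoy receptor TNFRSF10C was at most 0.283 FPKM, with the higher values in high-potential cells (0.283 and 0.263). These were the members that did not pass the filter on low values.

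Among the other death genes, single libraries often stood apart. TP53I3, a quinone oxidoreductase, was 6.95 and 7.71 FPKM in high-potential, 8.68 and 15.4 in parental accelerated and 7.57 and 15.7 in high-to-low cells, with replicate 2 of both parental groups apart from the rest. PHLDA3, an inhibitor of AKT signalling, was 7.36 FPKM in high-to-low replicate 2 and between 2.22 and 2.76 in the other libraries, so the difference of -0.69 in parental accelerated from high-to-low cells (limma adjusted p = 1) was -0.028 without that library and -1.36 without high-to-low replicate 1. TRIAP1, which protects mitochondria from permeabilisation, was 59.8 and 61.0, 59.7 and 50.5, and 63.9 and 80.2 FPKM, and was below both high-to-low libraries in 4 of 4 accelerated libraries. The two-sided exact permutation test gave p = 0.0667, the smallest that 4 against 2 libraries allow, and the accelerated minus high-to-low difference was -0.31 (log2, SE 0.172, limma adjusted p = 0.628). That permutation p reads the same separation and is not further support for it. Libraries did not overlap in this comparison for 12.9% of the kept members and 13% of all kept genes. AEN, a nuclease (11.2 to 17.6 FPKM), EI24, a membrane protein of the endoplasmic reticulum (93.8 to 133.1 FPKM), and ZMAT3, a zinc finger RNA-binding protein (1.71 to 3.04 FPKM), had no call. TP53INP1, a stress protein that promotes autophagy and death, lay between 0.306 and 1.86 FPKM.

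Of the repair genes, XPC and DDB2 had their lowest values in high-potential cells. XPC, the damage sensor of nucleotide excision repair, was 23.7 and 13.9 FPKM in high-potential, 35.7 and 30.9 in parental accelerated and 32.8 and 26.6 in high-to-low cells. The high-potential libraries were below all others, with a log2 difference of -0.84 against parental accelerated (SE 0.283, limma adjusted p = 0.26) and -0.67 against high-to-low (limma adjusted p = 0.279). DDB2, which recognises ultraviolet lesions in the same pathway, was 13.4 and 12.5, 15.01 and 22.6, and 19.8 and 18.8 FPKM, and was also below all others in both high-potential libraries (-0.54 against high-to-low, limma adjusted p = 0.299). POLH, the translesion polymerase, was level (2.94 to 3.79 FPKM), and RRM2B, a ribonucleotide reductase subunit, overlapped throughout (15.6 to 26.7 FPKM). None of the repair genes passed, and XPC had an unadjusted p of 0.0239 against parental accelerated.

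Among the metabolic and secreted members, GDF15, a secreted stress cytokine, varied with the library. It was 294.7 and 78.7 FPKM in high-potential, 195.4 and 191.5 in parental accelerated and 226.0 and 62.9 in high-to-low cells, and the log2 differences were 0.35 against high-to-low and -0.34 against parental accelerated (limma adjusted p = 0.85 and 0.89). GDF15, PMAIP1 and TNFRSF10B are also ATF4 response genes, and 14 of 15 other genes of an ATF4 list had lower values in high-potential cells than in the parental accelerated cells (median -0.77; 50.4% of all kept genes were higher), with 0 called by limma and 1 at an unadjusted p under 0.05. High-potential replicate 2 stood apart there: ASNS, which makes asparagine, was 25.4 FPKM in it and 90.7 to 144.7 in the others, and GDF15 and PMAIP1 were lower in it than in high-potential replicate 1. The part of that response in the member values was not tested. FDXR, a mitochondrial reductase that serves iron-sulfur cluster synthesis, was 17.0 and 14.5 FPKM in high-potential, 18.4 and 25.5 in parental accelerated and 18.0 and 20.4 in high-to-low cells (limma adjusted p = 0.444 against parental accelerated). TIGAR, a fructose bisphosphatase that lowers glycolysis, lay between 4.18 and 7.41 FPKM with overlapping groups.

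**Figure D4:**
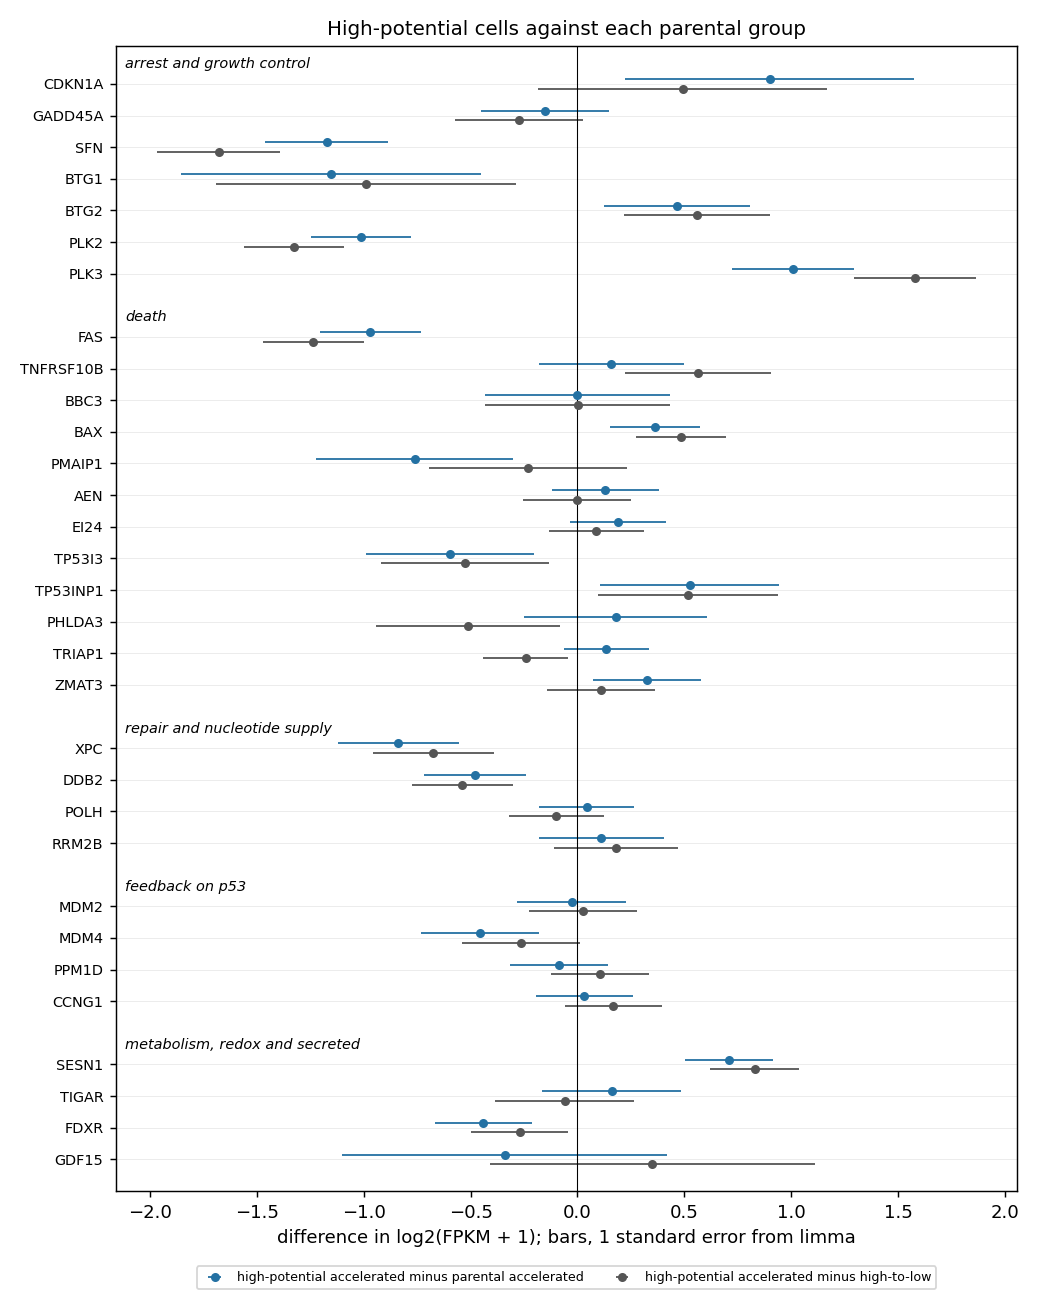
Difference in log2(FPKM + 1) of high-potential accelerated cells from parental accelerated (blue) and from high-to-low cells (grey) for the 31 kept members, with 1 limma standard error as bars. The 2 comparisons share the high-potential libraries; SFN, PLK2 and FAS lie lowest together with BTG1, and PLK3 highest.

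Within the parental cells, no member was called between the accelerated and high-to-low states. Of 31 kept members 0 passed limma and 0 had an unadjusted p under 0.05, where 0.0165% of all kept genes passed and 0.972% had an unadjusted p under 0.05. Members whose libraries did not overlap numbered 7 (22.6%), close to the 24.1% of all kept genes: PLK3 was higher in parental accelerated cells, and SFN, PLK2, AEN, PHLDA3, TRIAP1 and POLH were lower. Of the members 17 of 31 were higher (all kept genes 47%), and their median was 0.053 against -0.016 for all kept genes. SFN had a log2 difference of -0.51 and PLK3 of 0.57 (limma adjusted p = 1 for each), and without parental accelerated replicate 1, the library with ALDH1A1 in the high-to-low range, they were -0.32 and 0.75. Without high-to-low replicate 2 they were -0.19 and 0.26, and without high-to-low replicate 1 they were -0.82 and 0.89. PMAIP1 (0.53 with all libraries) was 1.09 without parental accelerated replicate 1, and CDKN1A (-0.41) was -1.07, within a range of -1.15 to 0.33 over the libraries left out.

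For all 4 accelerated libraries against high-to-low, 0.0659% of all kept genes passed limma and 0 members did, while 5 members had an unadjusted p under 0.05 (16.1%; all kept genes 9.25%). Of the members 14 of 31 were higher (all kept genes 47.1%). The 5 were SFN (-1.09), PLK2 (-0.82), FAS (-0.75), PLK3 (1.08) and SESN1 (0.47), each with a limma adjusted p of 0.43 or more. Libraries did not overlap for 4 members (12.9%; all kept genes 13%), which were PLK3, SFN, PLK2 and TRIAP1. The exact permutation test gave p = 0.133 for SFN, PLK2 and PLK3 and 0.2 for FAS and SESN1, two-sided. The high-potential libraries make up 2 of the 4 in this arm, and the values of both accelerated groups are given above.

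A list of 26 further reported p53 targets, 21 of them kept, had 1 call in each high-potential comparison (0.494% of all kept genes passed against parental accelerated and 0.799% against high-to-low). SULF2, which trims heparan sulfate, was 8.32 and 9.19 FPKM in high-potential cells and at most 0.379 in the parental libraries (log2 difference 2.98 against parental accelerated, SE 0.243, limma adjusted p = 0.0101, and 3.25 against high-to-low). DRAM1, a lysosomal membrane protein that promotes autophagy, had the second highest differences, at 29.7 and 36.6 FPKM in high-potential, 22.8 and 6.95 in parental accelerated and 24.3 and 8.60 in high-to-low cells (1.30 and 1.13, limma adjusted p = 0.414 and 0.399). Its high-potential libraries lay above the other 4. TNFRSF10D, the other decoy TRAIL receptor, was 32.1 and 25.4 FPKM against 18.1 and 16.9 in parental accelerated and 19.1 and 12.6 in high-to-low cells (0.68 and 0.84, limma adjusted p = 0.301 and 0.167). PGF, placental growth factor, was 2.45 and 1.37 FPKM against 4.06 and 7.14 in high-to-low cells (-1.16, limma adjusted p = 0.146). The second lowest were ANKRA2 against parental accelerated (-0.76, limma adjusted p = 0.26) and CES2 against high-to-low (-0.78, limma adjusted p = 0.23). Over the list 12 of 21 were higher against high-to-low (all kept genes 49.2%), with a median of 0.14, and 13 of 21 against parental accelerated (all kept genes 50.4%), with a median of 0.12.

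Around XPC and PLK2, genomic neighbours were lower in high-potential cells as these members were; PLK2 was chosen for this after the values were seen. For each member the 10 kept coding genes on either side in the RefSeq order were read. XPC lies on chromosome 3, and 20 of its 20 neighbours had lower values in high-potential cells against parental accelerated, with a median difference of -0.61 beside -0.84 for XPC itself. Against high-to-low the neighbours had a median of -0.53 and 20 of 20 were lower. PLK2 lies on chromosome 5, and 20 of its 20 neighbours were lower against parental accelerated (median -0.53) and 19 of 20 against high-to-low (median -0.57). The low point was near PLK2: DEPDC1B, ELOVL7, ERCC8 and NDUFAF2, the next 4 kept genes on one side, had log2 differences of -1.53, -1.39, -1.25 and -1.34 against high-to-low, and GPBP1 on the other side -1.01, beside -1.32 for PLK2. These 5 were chosen after their values were seen. Of 10760 places along all chromosomes, whose windows overlap, 3.42% had 20 of 20 neighbours lower against parental accelerated and 3.62% against high-to-low. At least 19 of 20 were lower at 7.36% of places against high-to-low.

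**Figure D5:**
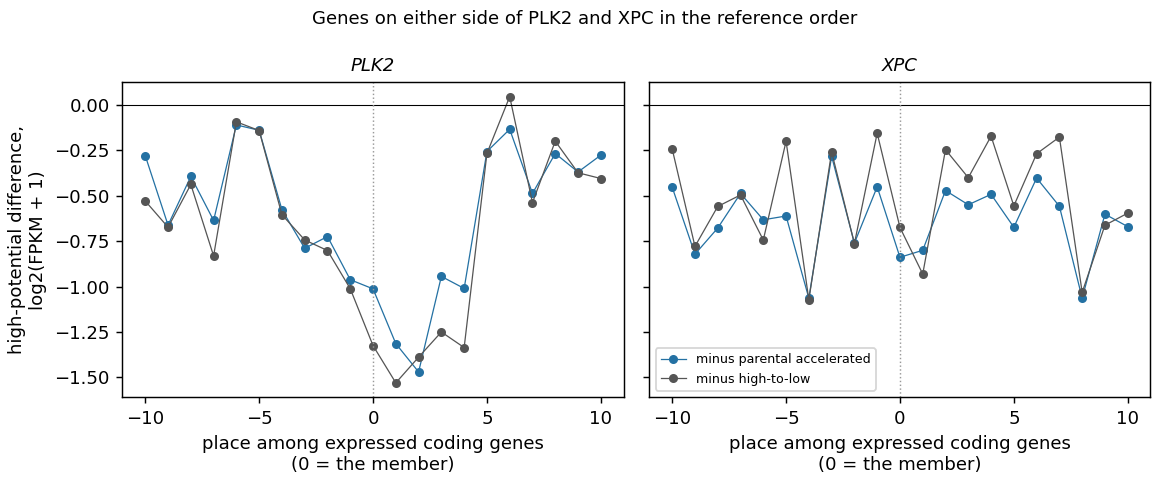
Difference of high-potential cells from parental accelerated (blue) and high-to-low cells (grey) in log2(FPKM + 1) for PLK2 and XPC (place 0) and the 10 kept coding genes on each side in the RefSeq order. Nearly all lie below 0, ZSWIM6 beside PLK2 at 0.04 against high-to-low excepted, and the lowest values surround PLK2.

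Both high-potential libraries had lower neighbour medians. Relative to the mean of the 4 parental libraries, the neighbours of XPC had medians of -0.61 and -0.41 in high-potential replicates 1 and 2. Those of PLK2 had -0.57 and -0.41, with 20 and 17 of 20 neighbours below that mean. The parental libraries lay between -0.15 and 0.23, around 0 by construction because the mean is their own. Against high-to-low, 8 of 20 neighbours were lower for SFN, for PLK3 and for SESN1, and 16 of 20 for FAS. TNFRSF10B and CCNG1 were chosen after the values were seen. The neighbours of TNFRSF10B were higher against high-to-low (median 0.72, with 1 of 20 lower; at most 2 were lower at 5.5% of all places; TNFRSF10B 0.56), whereas those of CCNG1 were lower (median -0.51, with 17 of 20 lower) although CCNG1 itself was at 0.17. The share of all places with 16 or 17 of 20 neighbours lower was not counted, so how unusual the FAS and CCNG1 counts are is not known.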

How the data were processed

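RNA of HEC-1B cells was amplified with SMART-Seq v4 and made into Nextera libraries, per the labels' protocols, a chemistry that does not mark strand. The authors deposited 1 FPKM value per gene symbol and library. TopHat2 2.0.13, Cuffnorm 2.2.1 and build hg19 appear in the record, per the submitters' processing notes. The annotation, like the scaling, is not given in the sources used here. FPKM are not counts, so limma 3.58.1 under R 4.3.3 was run with a trended variance on log2(FPKM + 1), for the 12135 genes that reached 1 FPKM in 2 or more libraries, over 3 groups of 2 with 3 residual degrees of freedom; the scale understates changes of low genes. Small RNA genes held 9.08 to 18.67% of summed FPKM. The step was tested on simulated data.

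The titles give each group replicates 1 and 2. A code at the start of the sample description is 180 for replicate 2 of both accelerated groups and 171 for all other libraries. What the code stands for is not known here. Within the accelerated groups it cannot be told apart from the replicate number, and no high-to-low library carries 180. Differences between replicates correlated between groups (r = 0.187, 0.158 and 0.281 across genes), so the numbers were treated as possible pairs; no label calls them so. No source says that replicates were separate cultures, so p-values reflect library-to-library spread alone, possibly a technical one. An exact permutation test of 2 libraries against 2 has a smallest p of 0.333.

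Members, lists and neighbour checks were chosen with earlier results of these data known. Members called, the 6 with the greatest difference in each comparison, and MDM2, CDKN1A, BAX, GDF15 and XPC were named with every value, and others by role; from other lists, called genes and those with the 2 highest and 2 lowest differences could be named and some were, and CCNB1 and ASNS were added after seeing values. A gene that was always to be named, with the list that holds it, is not reported here. The reference (GRCh38) is another build and served for names, gene order and promoters only; 4 symbols matched through older names.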

Additional observations from a re-analysis of the deposited data

How the results depend on the processing

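Over 17 alternative settings, 386 of 400 values of 24 member results kept direction and side of the threshold, 7 gained the call, all with the replicate number as a term, and 7 reversed. The replicate block gave 3 called members between the accelerated groups and 4 for high-potential against high-to-low, and 546, 944 and 17 called genes where the main model had 60, 97 and 8 (the third for all accelerated libraries); it changed no other member call. The other counts of genes were 31, 38, 27, 105 and 39 between the accelerated groups with log2(FPKM + 0.1), no filter, a filter at 5 FPKM, a term for the description code and only the compared libraries. They were 54, 39 and 54 for high-potential against high-to-low with log2(FPKM + 0.1), no filter and the code term. For parental accelerated against high-to-low (2 in the main model) they were 4 with log2(FPKM + 0.1), 0 without small RNA genes, 7 with the code term and 7 with only the compared libraries. For all accelerated libraries they were 3 without a filter, 1 without small RNA genes and 15 with the code term. Leaving out 1 library gave 14 to 38, 13 to 115, 4 to 7 and 3 to 15 genes in these 4 comparisons, 0 called members in each, and member medians of -0.098 to 0.076, -0.16 to -0.0016, -0.090 to 0.21 and -0.073 to 0.12. The median between the accelerated groups (0.032) was -0.028 at 5 FPKM and 0.0049 without small RNA genes, and that of high-potential against high-to-low was -0.15 with the code term. Reversals were CDKN1A for parental accelerated against high-to-low (-0.41), at 0.21 with the code term, 0.25 without parental accelerated replicate 2 and 0.33 without high-to-low replicate 1 (range without 1 library -1.15 to 0.33). PMAIP1 in the same comparison was -0.031 without parental accelerated replicate 2 (range -0.031 to 1.09). GDF15 was -0.22 without high-to-low replicate 2 (range -0.22 to 1.61) and, for all accelerated libraries, -0.39 (range -0.39 to 1.44). PHLDA3 for all accelerated libraries was 0.062 without that library (range -1.27 to 0.062). The cause was not tested. Relative depth is known only from low values. Low members such as TNFRSF10A and TNFRSF10C reached at most 0.0648 and 0.283 FPKM, and the number of fragments behind such values is not known.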
